A study of Mus musculus with 3 samples.

Results

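The matrix metalloproteinase (Mmp), ADAMTS protease (Adamts), ADAMTS-like (Adamtsl) and tissue inhibitor of metalloproteinases (Timp) genes were taken from the gene list by symbol, which gave 50 genes of the 32285 in the count matrices. They comprised 22 MMP, 19 ADAMTS, 5 ADAMTSL and 4 TIMP genes. At least 20 unique molecular identifiers (UMIs, each standing for 1 captured transcript) were counted in at least 1 library for 44 of them. The other 6 were Mmp1b, Mmp7, Mmp10, Mmp20, Mmp21 and Mmp24, and they are not described further except where their position matters.

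MMPs are zinc-dependent enzymes that cut collagens, gelatins, elastin and many secreted or membrane proteins, and most are made as inactive precursors. ADAMTS enzymes are secreted relatives, several of which cleave proteoglycans such as versican and aggrecan or process procollagen, and ADAMTSL proteins share their ancillary domains but lack the catalytic domain. TIMPs bind active metalloproteinases and block them, so the extent of matrix breakdown in an injured artery depends on both sides. RNA levels, which are all that was measured here, do not report enzyme activation.

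Cells were obtained from femoral arteries of WT male mice aged 8 weeks, after a Sham operation or 2 days (D2) or 7 days (D7) after wire injury of the artery, a model in which a wire passed through the vessel strips the endothelium. Living single cells sorted by flow cytometry from 6 mice were pooled into 1 droplet-based 3′ library per group, and the time after the Sham operation was not given in the sources used here. With 1 library per group there was no replicate check, so no test was possible, and every interval below is a 95% interval that covers counting error only. PCR and sequencing error, and differences between mice, lie outside it.

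Filtering left 7346 Sham, 11001 D2 and 10983 D7 cells, whose median depth was 4080, 6626 and 6777 UMIs. Between 21 and 29 cell barcodes were shared by any pair of libraries. Cells were grouped into 31 clusters without using the genes described here, and 28 clusters were given a class from marker genes. The vascular markers were present: smooth muscle-like cells had all 10 of their markers at 20 CPM (UMIs of a gene per 1000000 UMIs of its class) or more, and endothelial-like cells all 11. The smooth muscle-like cluster was also led by the pericyte marker Rgs5. No pericyte class was named, so pericytes were not separated from smooth muscle cells. Fibroblast-like cells numbered 3805 in Sham, 111 at D2 and 3158 at D7, while neutrophil-like cells numbered 148, 4506 and 1567. Only 17 smooth muscle-like and 30 lymphatic endothelial-like cells were found at D2, so these classes were compared between Sham and D7 alone. Comparisons needed 50 cells of the class or more on each side. Levels are CPM of the UMIs summed over the cells of a class, and 3′ UMI counts are not divided by gene length. A gene was called higher or lower where the higher library had at least 50 CPM and 20 UMIs and the ratio, with 1 CPM added to each side, was at least 2. Fewer cells of a type and less RNA per cell cannot be told apart in whole-library values, so the comparisons below are within classes.

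The genes were divided among cell classes in a way that differed strongly from gene to gene. Fibroblast-like cells held 98.0% of Mmp2 UMIs in Sham and 97.8% at D7, and 98.8% and 97.6% of Mmp3 UMIs. Neutrophil-like cells held 93.4% of Mmp9 UMIs at D2, but in Sham monocyte/macrophage-like cells held 70.1% of them. Mmp14 encodes a membrane-anchored collagenase that also activates MMP2. Fibroblast-like cells held 92.4% of its UMIs in Sham and 81.5% at D7, whereas monocyte/macrophage-like cells held 74.7% at D2. Such shares depend on cell numbers as well as on level. At D2 the Mmp14 level was 250 CPM in 111 fibroblast-like cells and 122 CPM in 4301 monocyte/macrophage-like cells. Timp4 was found mostly in endothelial-like cells in Sham (89.4%), Adamts18 in endothelial-like cells at D2 (98.3%) and Adamts20 in Schwann-like cells in Sham (89.7%).

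**Figure D1:**
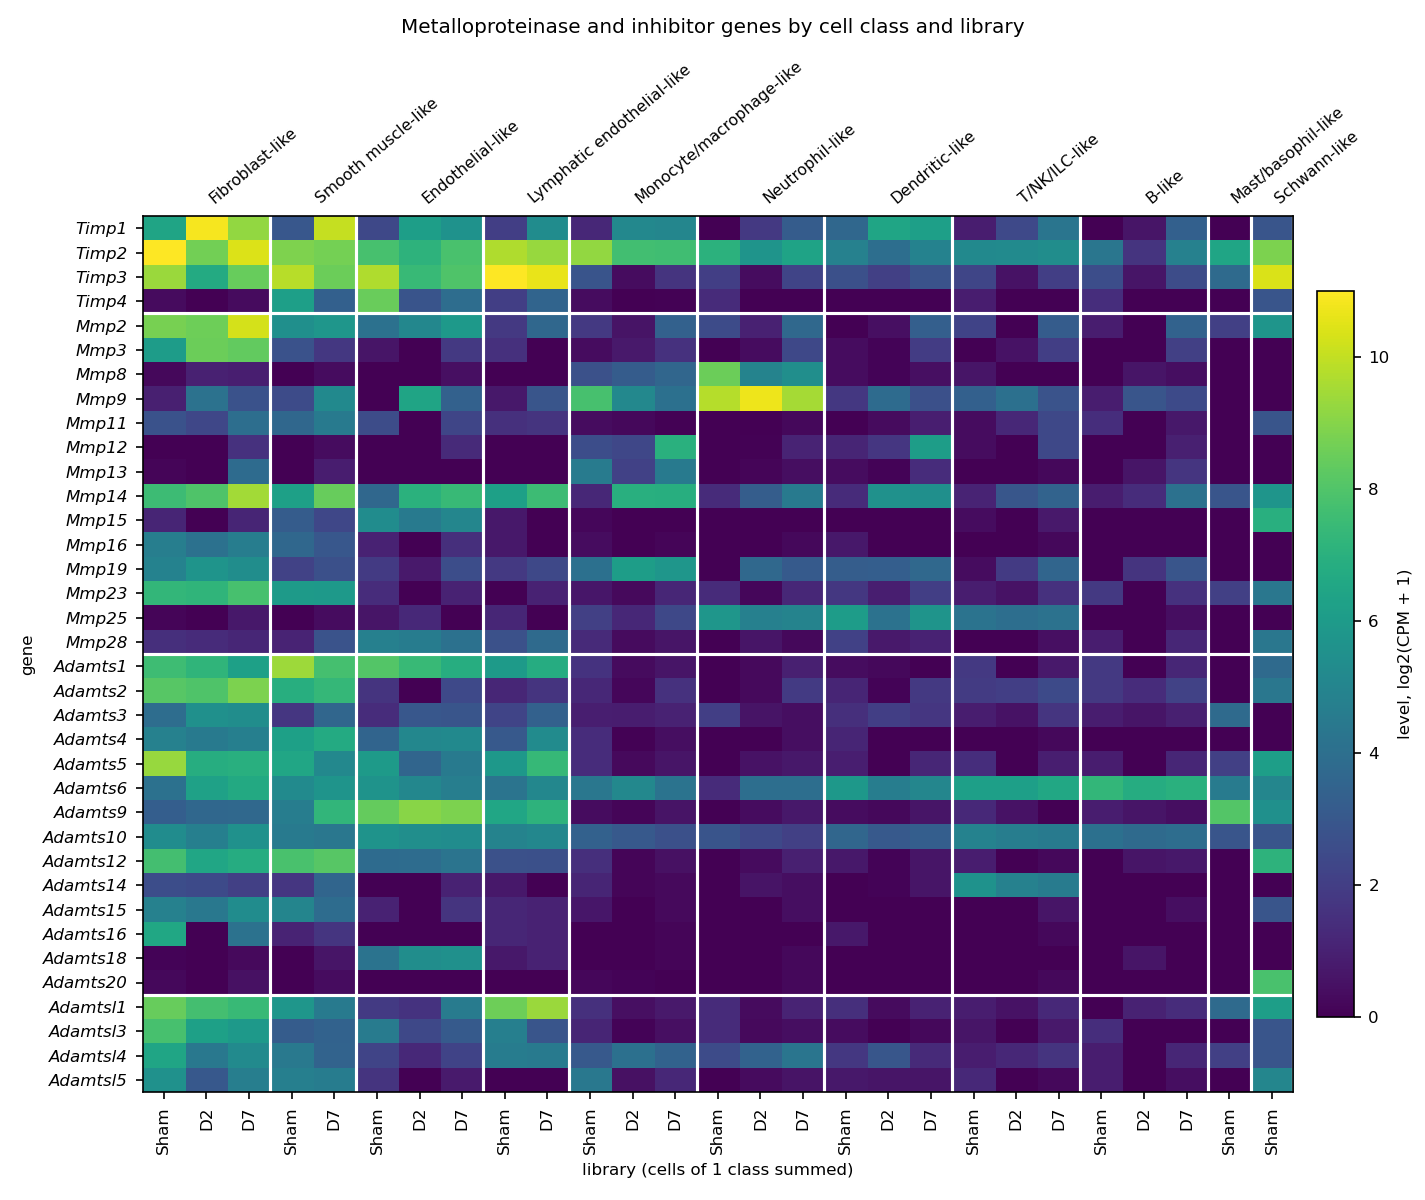
Level of each gene that reached 20 CPM and 20 UMIs in at least 1 class, as log2(CPM + 1), with genes in rows by family and the libraries of each class of at least 50 cells in columns. The TIMP rows are bright across stromal classes, Mmp9 is brightest in neutrophil-like cells, and most ADAMTS rows are dark in immune classes, with Adamts6, Adamts10 and Adamts14 in T/NK/ILC-like cells, Adamts6 in B-like cells and Adamts9 in mast/basophil-like cells among the exceptions.

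**Figure D2:**
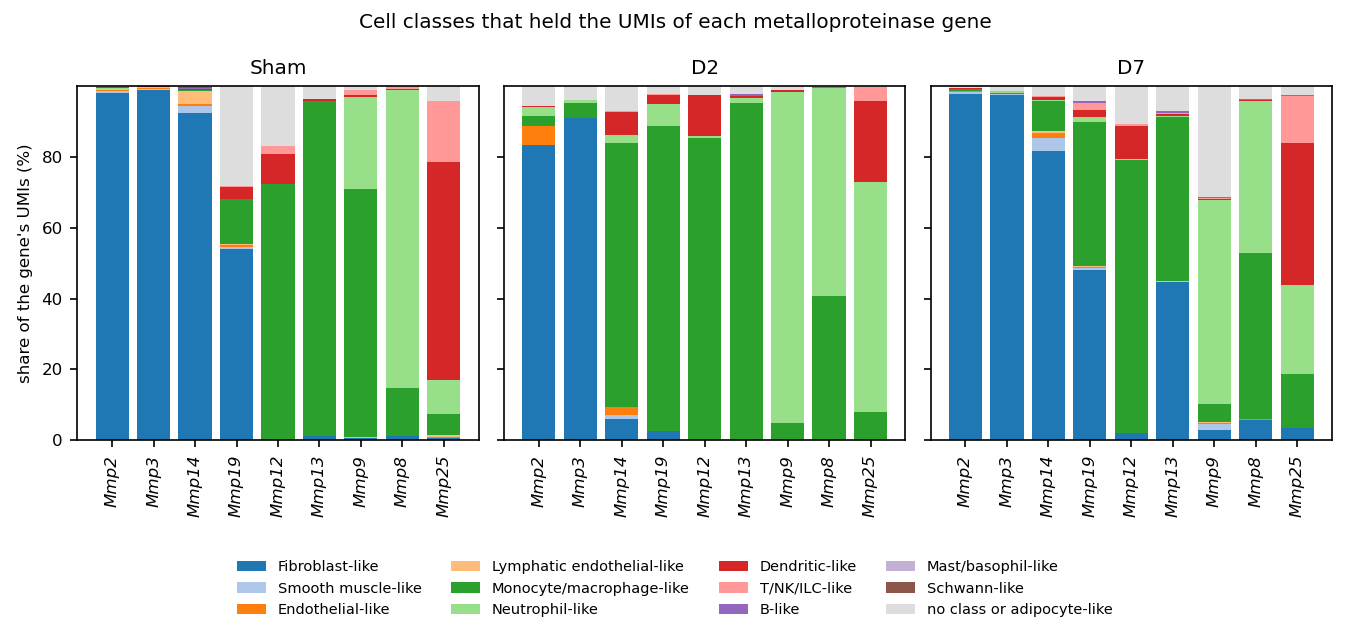
Share of the UMIs of 9 MMP genes held by each cell class in each library, in percent, with cells of no class or adipocyte-like cells in grey. The bars show Mmp2 and Mmp3 in fibroblast-like cells in every library and a grey share of Mmp9 at D7. Most Mmp14 UMIs at D2 lie in monocyte/macrophage-like cells. Shares depend on the number of cells in a class as well as on its level.

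The row of 9 MMP genes that lie side by side on chromosome 9 between positions 7272514 and 7699585 (RefSeq, GRCm38.p6, the build called mm10 by the submitters) spans 427 kb, and 5 of them were measured. Neighbours in this row were found in different cells. Mmp3, which encodes stromelysin-1, a protease that also activates other MMPs, reached 330 CPM in fibroblast-like cells at D7. Mmp8, encoding neutrophil collagenase, reached 373 CPM in neutrophil-like cells in Sham. Mmp12, encoding the macrophage elastase, reached 124 CPM in monocyte/macrophage-like cells at D7. Mmp13, encoding collagenase-3, was highest in monocyte/macrophage-like cells in all 3 libraries, at 23.0, 3.32 and 22.1 CPM, and Mmp27 was highest in fibroblast-like cells in Sham and at D7, at 9.14 and 3.55 CPM. At D2 too few Mmp27 UMIs (4 in fibroblast-like cells) were counted to name a class.

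The promoter sequences of this row are shown because neighbours share a motif while differing in the cells that hold their RNA. RefSeq promoter windows, from 250 bases before to 50 bases after an annotated start, matched 35 of the 50 genes in 38 windows. The letters TGANTCA, the core recognised by AP-1 family factors, read the same on both strands, and no other motif was compared. They were found in windows of 7 genes (Mmp1b, Mmp3, Mmp7, Mmp10, Mmp12, Mmp13 and Mmp20), all in this row, and in 0 of 27 windows of the other genes. Of all 32851 promoter windows in the table, 7.81% held the letters. Mmp8 and Mmp27 were without a match in their windows, and Mmp7 had a further annotated start without one. For Mmp12 the window at the start of the gene (position 7344397) held no match. Its match lay before a later annotated start inside the gene, and the sequence at that later start is printed below. The last 100 bases before the start are given 5′ to 3′ with the match in capitals, for Mmp3 at chr9:7445722-7445821, Mmp12 at chr9:7347274-7347373, Mmp13 at chr9:7272414-7272513 and, without a match, Mmp8 at chr9:7558329-7558428, all on the plus strand.
Mmp3: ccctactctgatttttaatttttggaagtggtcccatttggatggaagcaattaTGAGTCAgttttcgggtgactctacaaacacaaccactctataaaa
Mmp12: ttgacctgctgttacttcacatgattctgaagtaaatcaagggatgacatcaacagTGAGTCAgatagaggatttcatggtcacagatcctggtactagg
Mmp13: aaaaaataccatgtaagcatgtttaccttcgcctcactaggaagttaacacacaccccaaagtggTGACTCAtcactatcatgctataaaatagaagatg
Mmp8: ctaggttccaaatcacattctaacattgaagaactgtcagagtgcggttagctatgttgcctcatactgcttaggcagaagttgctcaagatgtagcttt
The match began 46 bases before the start in Mmp3, 44 before the later start of Mmp12 and 35 before the start in Mmp13. A match describes letters only, and no binding was measured.

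In fibroblast-like cells at D2, the inhibitors differed from Sham in opposite directions. Timp1 was 22.1-fold higher, while Timp2 was 5.04-fold and Timp3 6.16-fold lower. The D2 ratios of this class compare largely different clusters, as given below. At D7 the proteases Mmp2, Mmp3 and Mmp14 were 2.87-fold, 4.95-fold and 3.76-fold higher than in Sham. The aggrecanase gene Adamts5 was more than 5-fold lower in both injured libraries. Of the 50 genes, 23 reached 20 CPM and 20 UMIs in at least 1 library of this class, and 14 were called higher or lower in at least 1 comparison.

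Timp1, the inducible secreted inhibitor, stood at 83.6 CPM (79.2 to 88.2) in Sham, against 1849 CPM at D2 and 600.1 CPM at D7. The D2 level was 22.1-fold (20.8 to 23.6) and the D7 level 7.18-fold (6.79 to 7.59) that of Sham. Under the alternatives run, the Sham level ran from 40.9 to 226 CPM. The D2 level stayed between 1679 and 1873 CPM and the D7 level between 552 and 624 CPM. The size of both ratios thus depended on the processing, while Sham stayed lowest. Cells thinned to 1000 UMIs held a Timp1 UMI in 10.3% of cells in Sham, 64.1% at D2 and 31.2% at D7, against 23.2%, 80.2% and 80.4% before thinning. Cells under 1000 UMIs were left out of the thinned shares here and below. In Sham this left out most cells of cluster 3 (described below), whose median was 838 UMIs. That cluster had a Sham Timp1 level of 375 CPM, so the thinned and unthinned Sham shares cover different cells. D2 was thus the highest library by level and by thinned share, while the unthinned shares of D2 and D7 were close. Timp2, whose product also takes part in MMP2 activation, was the highest gene of the set in Sham at 2022 CPM, with 401 CPM at D2 and 1361 CPM at D7. Timp3, whose product stays bound to the matrix and also inhibits ADAMTS enzymes, ran from 652 through 106 to 345 CPM. Both had their lowest level at D2, 5.04-fold (4.70 to 5.42) below Sham for Timp2 and 6.16-fold (5.37 to 7.1) below it for Timp3. At D7 neither reached the 2-fold difference from Sham. Under the alternatives run, the Timp2 level at D2 ran from 372 to 833 CPM, so the size of its D2 ratio depended on the processing.

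Mmp2, encoding gelatinase A, was at 430 CPM in Sham, 377 CPM at D2 and 1237 CPM at D7. Mmp14 was at 188, 250 and 706 CPM. Both were therefore high at D7 only, by 2.87-fold (2.80 to 2.95) and 3.76-fold (3.62 to 3.90) over Sham. Mmp3 differed in timing, at 66.7 CPM in Sham, 366 CPM at D2 and 330 CPM at D7, so that it was already 5.49-fold (4.99 to 6.04) higher at D2. Mmp23, a type II membrane protease of uncertain substrates, was at 157, 147 and 223 CPM and was not called in any comparison.

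Among the ADAMTS genes, Adamts5, encoding a main aggrecanase that also cleaves versican, was at 632 CPM in Sham, 116 CPM at D2 and 121 CPM at D7. It was 5.47-fold (4.79 to 6.26) lower at D2 and 5.23-fold (5.05 to 5.41) lower at D7. Adamts16 had 1510 UMIs (93.9 CPM) in Sham, 0 at D2 and 651 (16.7 CPM) at D7. Counted against a floor of 3 UMIs, the Sham level was at least 61.2-fold higher than that of D2. Of the Sham UMIs, 1495 lay in cluster 15 (described below), which had 1 cell at D2, so Sham and D2 were not compared within it. Adamts6 went the other way, from 16.4 CPM in Sham (beside 154 CPM in B-like cells) to 77.7 CPM at D2 and 101 CPM at D7, ratios of 4.74 (3.85 to 5.80) and 6.16 (5.43 to 7.00). Its D2 value rests on few cells, since 71 of its 152 UMIs lay in 3 cells and the level without them was 44.9 CPM. Adamts1, another versican-cleaving protease, was 2.58-fold (2.45 to 2.72) lower at D7 at 74.9 CPM against 193 CPM, with 144 CPM at D2. Adamts12 was 2.36-fold (2.03 to 2.77) lower at D2, at 89.5 CPM against 211 CPM in Sham, and stood at 112 CPM at D7. Adamts2, the procollagen N-proteinase, was the highest ADAMTS gene at D2 and D7, at 246 and 454 CPM after 282 CPM in Sham, and was not called.

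Adamtsl3 and Adamtsl4, of the ADAMTS-like genes, were lower in both injured libraries than in Sham, and Adamtsl1 was called lower at D7 only. Adamtsl3 was at 221 CPM in Sham, 74.1 CPM at D2 and 60.7 CPM at D7. Adamtsl4, whose product binds fibrillin-1, was at 88.1, 19.9 and 37.9 CPM. Adamtsl1 was at 349, 209 and 169 CPM, and its 2.06-fold (1.99 to 2.14) lower level at D7 sits at the edge of the rule, since it was not called with scaling between libraries by the median ratio or with a class given to each cell. With every cell weighted alike, Adamts6, Adamts12, Adamts16 and Adamtsl3 lost their D2 calls and Adamts16, Adamtsl1 and Adamtsl4 their D7 calls, all with unchanged direction. In that setting Timp2 also lost its D7 over D2 call, at a log2 ratio of 0.73 against 1.76. The remaining 9 genes described in this class lay between 7.16 and 454 CPM.

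Of the 17 genes that reached the 50 CPM floor in the D2 against Sham comparison, 3 were called higher and 7 lower, where 13.9% and 15.1% of the 3988 genes tested were called. For D7 against Sham, 5 of 16 were higher and 6 lower, where 7.6% and 10.4% of 3761 genes were called. For D7 against D2, 4 of 15 were higher (Mmp2, Mmp14, Timp2 and Timp3) and 1 lower (Timp1), where 6.75% and 6.16% of 3704 genes were called. By family, the MMP median log2 ratio at D7 against Sham was 1.71 over 4 genes, the ADAMTS median -1.14 over 6 and the ADAMTSL median -1.19 over 3, beside -0.05 over all genes tested. At D2 against Sham the medians were 0.41, -0.83 and -1.56, beside 0.07, and the 3 TIMP genes had -2.33. The MMP median was thus above that of all genes in both comparisons while the ADAMTS and ADAMTSL medians were below it. Early response genes that tissue digestion can induce also differed, with 11 of 18 lower at D2 and a median log2 ratio of -1.04, and their part in these differences was not tested.

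**Figure D3:**
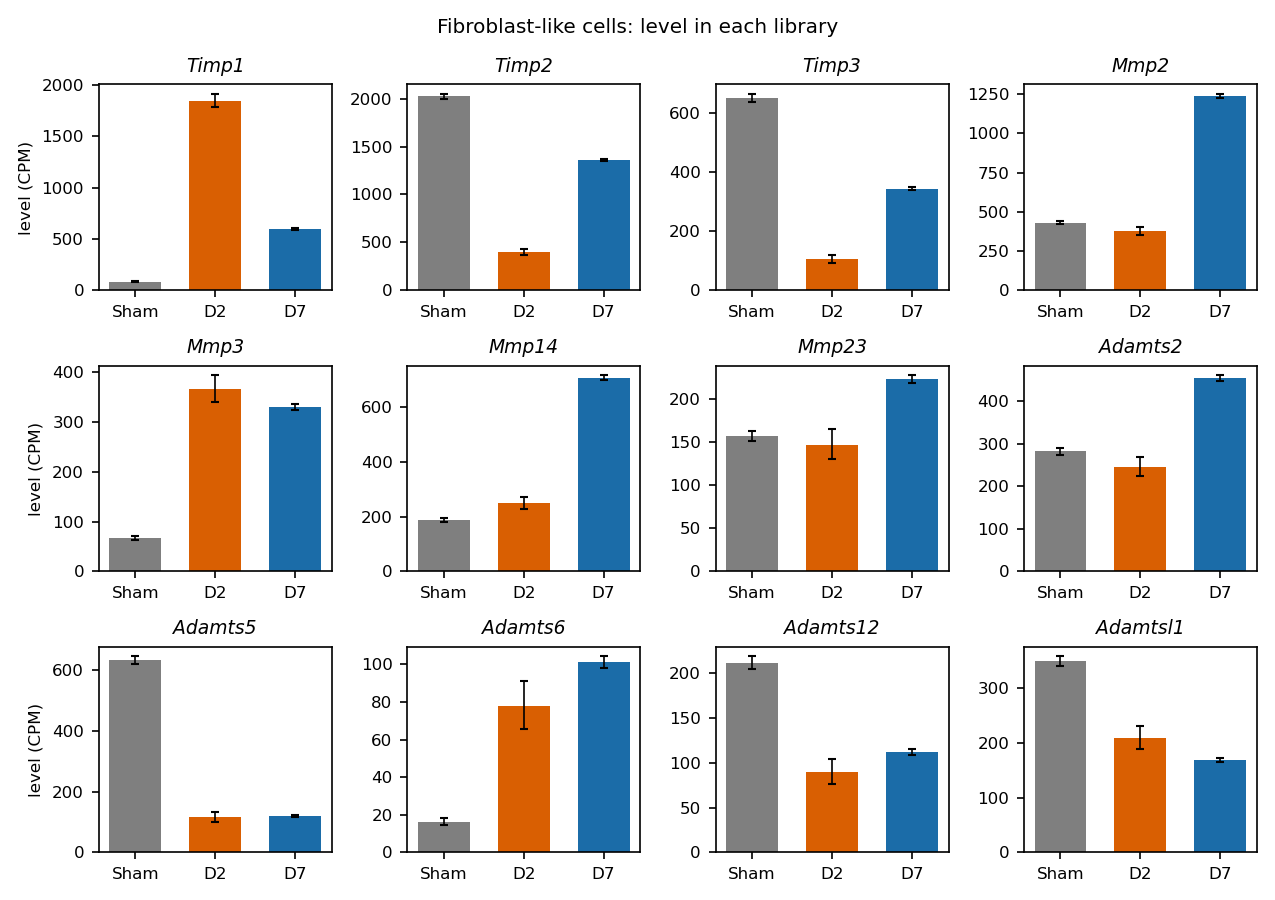
Level of 12 genes in fibroblast-like cells, in CPM, as bars for the Sham, D2 and D7 libraries, with 95% intervals from counting error. Timp1 is tallest at D2, Mmp2 and Mmp14 are tallest at D7, and Adamts5 is tallest in Sham.

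The fibroblast-like class was made of different clusters in each library. In Sham, 47.1% of its UMIs came from cluster 15 (marked by Pi16) and 39.5% from cluster 11 (marked by Inmt and Penk), while cluster 0 (marked by Mfap4, Cthrc1 and Postn) held 94.3% at D2 and 93.1% at D7. No cluster of the class had at least 50 cells in both Sham and D2, so the D2 ratios could not be followed within clusters. The Sham and D2 cells numbered 14 and 77 in cluster 0 and 1965 and 25 in cluster 3. They numbered 1043 and 8 in cluster 11 and 783 and 1 in cluster 15. Clusters 3, 11 and 15 had at least 50 cells in both Sham and D7, and genes called in the class did not all behave alike there. Adamts5 showed no drop within them: 1058 CPM in Sham and 1103 CPM at D7 in cluster 15 (ratio 1.04, 0.99 to 1.09), 293 and 337 CPM in cluster 11, and 115 and 146 CPM in cluster 3. Its level in cluster 0 at D7 was 65.6 CPM. The lower Adamts5 level of the class at D7 was thus not seen inside these 3 clusters. Clusters 3, 11 and 15 held only 0.739%, 1.28% and 4.92% of all class UMIs at D7. Cluster 0 had too few Sham cells to compare, and the part of cluster make-up in the class difference was not tested. Adamtsl1 likewise was not lower in any of the 3 clusters, at 507 and 611 CPM in cluster 15, 248 and 258 CPM in cluster 11, and 84.7 and 115 CPM in cluster 3.

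Timp1, Mmp2, Mmp3 and Mmp14 were higher, and Timp3 lower, at D7 within each of those 3 clusters. Timp1 was at 18.6 and 143 CPM in cluster 15 and at 64.7 and 149 CPM in cluster 11. In cluster 3, where its Sham level was highest, it differed less, at 375 and 557 CPM (ratio 1.48, 1.24 to 1.76). Mmp3 was at 21.3 and 145 CPM in cluster 15, at 105 and 294 CPM in cluster 11 and at 117 and 532 CPM in cluster 3. Timp3 was at 873 and 415 CPM in cluster 15, at 451 and 244 CPM in cluster 11 and at 451 and 271 CPM in cluster 3. These genes thus kept the direction of the class inside its clusters. Adamtsl3 and Adamts6 differed between the clusters. The D7 over Sham ratio of Adamtsl3 was 0.24 (0.20 to 0.28) in cluster 15, 0.86 (0.68 to 1.07) in cluster 11 and 1.33 (0.77 to 2.19) in cluster 3, and that of Adamts6 was 2.97 (2.23 to 3.93) in cluster 15 and 0.49 (0.16 to 1.18, from 5 D7 UMIs) in cluster 11. Adamts16 was almost confined to cluster 15, which held 1495 of its 1510 Sham UMIs of the class, and was at 197 CPM there in Sham and 85.1 CPM at D7. Within cluster 15 the aggrecan- and versican-cleaving Adamts15 was 5.54-fold (4.55 to 6.76) higher at D7, at 129 against 23.4 CPM, a difference not visible over the class, where it stood at 27.9 and 39.2 CPM. Cells of cluster 3 were shallow (median 838 UMIs in Sham), and leaving this cluster out of the class left the direction of every called ratio as it was.

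**Figure D4:**
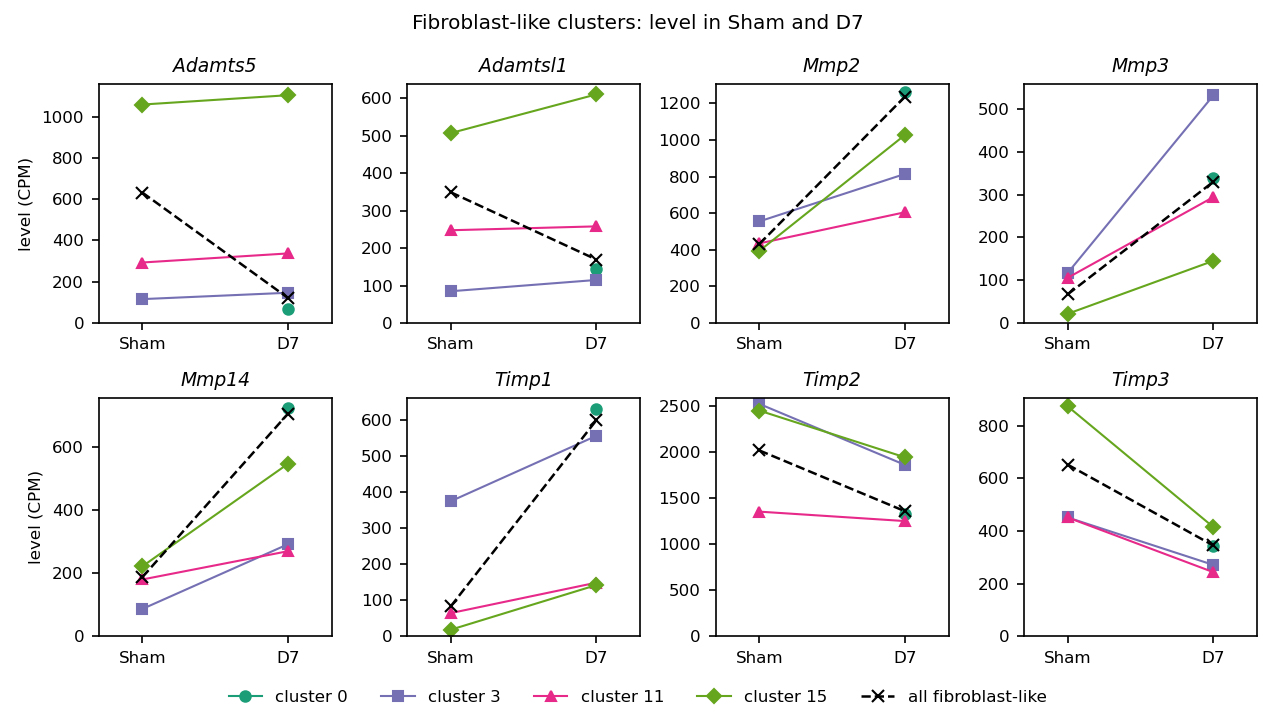
Level of 8 genes in CPM in Sham and D7 for the fibroblast-like clusters of at least 50 cells (coloured lines and symbols; cluster 0 had enough cells at D7 only) and for the whole class (black dashed line). For Adamts5 and Adamtsl1 the class line falls while the cluster lines do not; for Timp1, Mmp2, Mmp3 and Mmp14 all lines point up.

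In smooth muscle-like cells, Timp1 showed the largest ratio of any gene called in the set between these libraries. Only 6 Timp1 UMIs (6.99 CPM) were counted in 196 Sham cells, against 3774 UMIs (1038 CPM) in 305 D7 cells, a ratio of 149 (68.2 to 405). The D7 level exceeded that of fibroblast-like cells in the same library (600.1 CPM). It was uneven among cells: 45.9% of them held a Timp1 UMI (22.1% after thinning to 1000 UMIs, against 2.38% in Sham), and 1023 of the UMIs lay in 3 cells. Without those cells the level was 798 CPM. Mmp14 was 4.62-fold (3.60 to 6.03) higher at D7, at 350 against 75.7 CPM, and Adamts9, encoding a versican-cleaving protease, 6.15-fold (3.98 to 10.0) higher, at 150 against 24.5 CPM.

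The 5 genes that were lower in smooth muscle-like cells at D7 were Adamts1, Timp3, Adamts5, Timp4 and Adamtsl1. Adamts1, the highest protease gene of this class in Sham, was at 667 CPM in Sham and 217 CPM at D7, 3.07-fold (2.76 to 3.43) lower. Timp3 was at 911 and 364 CPM, 2.50-fold (2.29 to 2.74) lower. Adamts5 was at 90.8 and 34.4 CPM, beside 632 CPM in fibroblast-like cells in Sham and 165 CPM in lymphatic endothelial-like cells at D7. Timp4 (72.2 and 9.35 CPM, beside 359 and 14.4 CPM in endothelial-like cells) and Adamtsl1 (54.7 and 21.7 CPM, beside 385 and 652 CPM in lymphatic endothelial-like cells) lost their call without the 3 cells that held most of their UMIs. Adamts1 and Adamts5 also lost theirs with every cell weighted alike, and Timp3 with a class given to each cell. Timp2 (462 and 411 CPM) and Adamts12 (229 and 282 CPM) differed little. In all, 3 of the 15 genes reaching the floor were higher and 5 lower, where 9.44% and 8.26% of 3910 genes were called. The summed smooth muscle markers of this class were 35748 CPM in Sham and 14903 CPM at D7 and the summed fibroblast markers 8313 and 10927 CPM, with 0 of 10 markers of either list at 0, and their part in these results was not tested.

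In endothelial-like cells, the inhibitors Timp3 and Timp4 were lower and the protease Mmp14 higher after injury. Timp4, an inhibitor with restricted tissue expression, was at 359 CPM in Sham, 6.30 CPM at D2 and 14.4 CPM at D7. This was 57.0-fold (29.8 to 125) lower at D2 and 24.8-fold (18.1 to 35.1) lower at D7. After thinning to 1000 UMIs, 21.5% of Sham cells held a Timp4 UMI, against 0 of 87 cells at D2, which allows a share of cells with a UMI of up to 3.45% at this depth (3 counts of 87), and 1.60% at D7. Timp3 was at 818, 169 and 254 CPM, 4.85-fold (4.23 to 5.57) and 3.22-fold (2.95 to 3.53) lower. All 3 measures placed Sham highest for both inhibitors.

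Mmp14 was at 11.7 CPM in Sham, 128 CPM at D2 and 167 CPM at D7 in endothelial-like cells, beside 188, 250 and 706 CPM in fibroblast-like cells. The ratios to Sham were 10.9 (7.00 to 17.9) and 14.2 (9.28 to 22.9). Timp1 was at 4.27, 71.4 and 48.0 CPM, far under the 1849 CPM of fibroblast-like cells at D2 and the 1038 CPM of smooth muscle-like cells at D7. Its D2 level was 16.7-fold (8.18 to 39.8) that of Sham. Mmp2 was at 16, 32.9 and 59.6 CPM, beside 430, 377 and 1237 CPM in fibroblast-like cells, and its call at D7 turned to a log2 ratio of -0.51 when free RNA, estimated at 10.0% of the UMIs of these cells at D7, was subtracted. Mmp9 had 0 UMIs in Sham and 121 at D2 (84.7 CPM, at least 52.9-fold higher against the floor of 3 UMIs), with 9.75 CPM at D7, beside 1712 and 728 CPM in neutrophil-like cells at D2 and D7. Of those 121 UMIs, 87 lay in 3 cells, and the level without them was 24.6 CPM. Further, the summed neutrophil markers of endothelial-like cells were 24.0 CPM in Sham and 1435 CPM at D2, with 7 of 9 markers at 20 CPM or more at D2. Their part in the Mmp9 value was not tested. Adamts9 was the highest protease gene of the class at 339, 524 and 448 CPM and was not called. Adamts1 was at 268, 170 and 114 CPM and was lower at D7, 2.36-fold (2.04 to 2.72). Adamts5 was at 62.9, 11.2 and 22.4 CPM, beside 632 and 116 CPM in fibroblast-like cells in Sham and at D2 and 165 CPM in lymphatic endothelial-like cells at D7. Without the 3 Sham cells with most of its UMIs, its Sham level was 48.2 CPM, just under the floor, so that both calls were lost, at log2 ratios of -2.01 (D2) and -1.07 (D7) against -2.39 and -1.45.

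For D2 against Sham, 3 of 9 genes were higher and 3 lower in endothelial-like cells, where 10.4% and 10.5% of 4240 genes were called. For D7 against Sham, 2 of 8 were higher and 4 lower, where 5.87% and 6.61% of 4175 genes were called. For D7 against D2, 0 of 8 were higher and 1 was lower (Mmp9), where 2.19% and 1.1% of 4012 genes were called. Early response genes that digestion can induce were lower for 9 of 19 at D2 and 7 of 19 at D7, and their part in these differences was not tested. The other 8 genes described in the class lay between 2.10 and 49.1 CPM. One of them, Adamts18, was near-exclusive to endothelial-like cells at D2 and D7 (98.3% and 87.9% of its UMIs), at 17.1, 40.6 and 44.4 CPM.

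Lymphatic endothelial-like cells had the highest Timp3 level of any class, 2520 CPM in Sham and 1600 CPM at D7, with a UMI in 96.9% and 93.6% of cells. They also held the highest Adamtsl1 levels, 385 and 652 CPM. Adamts5 was 2.91-fold (2.23 to 3.82) higher at D7, at 165 against 56.5 CPM, and Mmp14 2.48-fold (1.95 to 3.15) higher, at 185 against 74.7 CPM, beside 706 CPM in fibroblast-like cells. Mmp14 lost its call without the 3 cells holding most of its UMIs. Of the 7 genes reaching the floor, 2 were called higher and 0 lower, where 4.28% and 4.21% of 4202 genes were called.

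In monocyte/macrophage-like cells, Mmp14 and Mmp19 were higher in both injured libraries, Mmp12 was higher at D7 only, and Mmp9 and Timp2 were highest in Sham. Mmp14 was at 1.33 CPM (9 UMIs) in Sham, 122 CPM at D2 and 116 CPM at D7, beside 188, 250 and 706 CPM in fibroblast-like cells. The ratios were 92.1 (48.5 to 202) and 87.8 (46.2 to 192). After thinning to 1000 UMIs, a UMI was held by 0.307% of cells in Sham, 11.2% at D2 and 8.73% at D7, against 0.592%, 54.5% and 42.5% before it. B-like cells had 0.836, 1.64 and 16.1 CPM of Mmp14, and the source of these UMIs was not tested. Under the alternatives run, which include subtraction of free RNA, the monocyte/macrophage-like level ran from 111 to 123 CPM at D2. At D7 it ran from 102 to 120 CPM. Mmp14 was also higher within clusters present in both libraries, at 2.61, 57.4 and 46.1 CPM in the monocyte cluster 9 (marked by Chil3 and Ly6c2).

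Mmp12 was at 5.01 CPM in Sham, 4.03 CPM at D2 and 124 CPM at D7, 24.7-fold (17.7 to 35.8) over Sham and 30.8-fold (26.6 to 35.7) over D2. In Sham, 28 of its 34 UMIs lay in 2 cells of cluster 5. At D7 it still came from few cells, since 9.22% of D7 cells held a UMI (3.40% after thinning). Cluster 10, in which Il10 was among the marker genes, had the highest level, 239 CPM at D7 against 13.0 CPM at D2. Each of the 3 other clusters with at least 50 cells and 20 CPM at D2 or D7 was also higher at D7: cluster 2 (92.8 against 2.79 CPM), cluster 5 (125 against 1.73 CPM) and cluster 21 (31.1 against 1.26 CPM). Cluster 9, just under that level, was at 19.7 against 2.21 CPM. The D7 level was thus not that of a single cluster. Mmp19, a secreted MMP with basement membrane substrates, was at 15.5, 68.7 and 53.7 CPM, 4.44-fold (3.65 to 5.44) and 3.47-fold (2.84 to 4.27) over Sham, although its D7 call was lost with a class given to each cell. Its highest cluster level, 116 CPM, was that of cluster 9 at D2, against 2.61 CPM in Sham. The other clusters with enough Sham cells differed less: cluster 5 was at 31.3, 56.0 and 42.5 CPM, a D2 ratio of 1.79 (1.04 to 3.38) and a D7 ratio of 1.36 (0.77 to 2.60), and cluster 13 was at 16.6 CPM in Sham and 26.7 CPM at D7 (1.61-fold, 1.04 to 2.44).

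Mmp9, encoding gelatinase B, was at 220 CPM in Sham, 34.0 CPM at D2 and 15.6 CPM at D7 in monocyte/macrophage-like cells, beside 875, 1712 and 728 CPM in neutrophil-like cells. The Sham level came from cluster 13 (marked by Cd163 and Lyve1, as in resident macrophages), which held 1446 of the 1494 UMIs at 292 CPM (277 to 308), in 377 of 742 cells. The same cluster had 26.7 CPM at D7, and its summed neutrophil markers were 295 CPM in Sham and 542 CPM at D7, with 0 of 9 at 0. Within this cluster Mmp9 was 10.9-fold (7.75 to 15.9) lower at D7 while the neutrophil markers were not lower. The other clusters with enough Sham cells went the other way, from few or no Sham UMIs: cluster 5 was at 2.41 CPM in Sham (1 UMI) and 30.8 CPM at D2, and cluster 9 had 0 UMIs in Sham and 29.2 CPM at D7. Timp2 was at 600.4, 205 and 199 CPM in the class, but within cluster 13 at 793 CPM in Sham and 629 CPM at D7. Cluster 13 held 73.0% of all UMIs of the class in Sham and 4.97% at D7. Mmp13 was at 23.0, 3.32 and 22.1 CPM, from 34 Sham cells and 134 D7 cells.

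For D2 against Sham, 2 of the 4 genes reaching the floor in monocyte/macrophage-like cells were higher and 2 lower, where 5.51% and 7.71% of 3811 genes were called. For D7 against Sham, 3 of 5 were higher and 2 lower, where 6.87% and 9.36% of 3784 genes were called. For D7 against D2, 1 of 4 was higher (Mmp12) and 0 lower, where 1.54% and 0.513% of 3506 genes were called.

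In neutrophil-like cells, Mmp9 dominated the set, and Mmp8, the neutrophil collagenase gene, was lower after injury. Mmp9 stood at 875 CPM (804 to 951) in Sham, 1712 CPM at D2 and 728 CPM at D7. The share of cells with a UMI was 91.2%, 95.2% and 75.3% (53.7%, 74.2% and 43.6% after thinning). D2 was the highest library in each of the 4 clusters compared between D2 and D7 (1804 against 615 CPM in cluster 1, 1788 against 880 in cluster 4, 1469 against 697 in cluster 6, and 1520 against 595 in cluster 20). The D7 level was 2.35-fold (2.28 to 2.43) lower than that at D2, and the D2 level was 1.96-fold (1.80 to 2.13) that of Sham, just under the size needed for a call. Mmp8 was at 373, 29.4 and 42.0 CPM, 12.7-fold (10.9 to 14.8) and 8.89-fold (7.42 to 10.6) lower. Of its 236 Sham UMIs, 87 lay in 3 cells, and the Sham level without them was 246 CPM. In cluster 6 (marked by Retnlg), to which 133 of 148 Sham cells belonged, Mmp8 was at 402, 65.1 and 88.2 CPM, so that it was lower within the cluster, and it was under 30 CPM in clusters 1, 4 and 20. Mmp25, encoding a membrane-anchored MMP of leukocytes, was at 53.8, 27.0 and 29.3 CPM, and Timp2, at 131, 50.3 and 81.2 CPM, was lower at D2 by 2.61-fold (2.06 to 3.27), beside 2022 and 401 CPM in fibroblast-like cells.

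Of the 4 genes reaching the floor, 0 were higher and 2 lower at D2 against Sham, where 19.9% and 8.37% of 3287 genes were called. At D7 against Sham, 0 of 4 were higher and 1 was lower, where 19.8% and 8.38% of 3256 genes were called. At D7 against D2, 0 of 2 were higher and 1 was lower (Mmp9), where 1.8% and 1.06% of 3217 genes were called.

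Dendritic-like cells differed from macrophage-like cells in Mmp25, which they held at the highest level in Sham and D7, at 67.5, 16.9 and 51.5 CPM. Its D7 level was concentrated in cluster 23 (191 CPM in 95 cells), and without 3 cells the class level lay just under the floor, at 46.3 CPM. Its D7 over D2 call was lost there and when called doublets were kept, with a class given to each cell, or when the genes described here were used for clustering, but the log2 ratio stayed between 1.40 and 1.57, against 1.55. Its D2 over Sham call was lost in the last of these settings, where the log2 ratio was -1.58 against -1.93. Timp1 was at 11.6, 87.9 and 72.8 CPM, 7.57-fold (5.47 to 10.8) and 6.27-fold (4.49 to 8.99) over Sham, beside 1849 CPM in fibroblast-like cells at D2 and 1038 CPM in smooth muscle-like cells at D7. Mmp12 was at 1.22, 2.36 and 69.0 CPM, beside 5.01, 4.03 and 124 CPM in monocyte/macrophage-like cells, but 225 of its 378 D7 UMIs lay in 3 cells. Adamts6 was at 57.8, 24.2 and 31.9 CPM, beside 154, 113 and 126 CPM in B-like cells. For D2 against Sham, 1 of 3 genes was higher and 2 lower, where 7.37% and 6.11% of 3405 genes were called. For D7 against Sham, 2 of 4 were higher and 0 lower, where 6.33% and 4.47% of 3399 genes were called, and for D7 against D2, 2 of 3 were higher and 0 lower, where 1.47% and 0.629% of 3339 genes were called.

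The ADAMTS genes described in lymphoid classes were Adamts6, Adamts14 and, in T/NK/ILC-like cells, Adamts10 (28.7, 24.1 and 21.8 CPM). Adamts6 was highest of all classes in B-like cells, at 154, 113 and 126 CPM, and stood at 73.3, 72.2 and 96.1 CPM in T/NK/ILC-like cells. Adamts14, a procollagen N-proteinase gene like Adamts2, was highest in T/NK/ILC-like cells at 48.3, 27.2 and 22.9 CPM, and in cluster 19 of that class at 158, 119 and 113 CPM. By the main rule, 0 genes of the set were called in T/NK/ILC-like or B-like cells in the 3 comparisons, with 1 gene (Adamts6) reaching the floor in each. Over all genes, 5.47%, 5.35% and 0.866% were called in either direction in T/NK/ILC-like cells (D2 against Sham, D7 against Sham and D7 against D2) and 6.58%, 6.13% and 1.6% in B-like cells. Among the smaller Sham classes, Adamts20 was at 226 CPM in 50 Schwann-like cells, with Timp3 at 1347 CPM, and Adamts9 was at 266 CPM in 74 mast/basophil-like cells.

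Summed over genes, MMP and ADAMTS UMIs were set against TIMP UMIs in each class. In fibroblast-like cells the ratio was 0.898 (0.886 to 0.910) in Sham, 0.871 (0.835 to 0.909) at D2 and 1.60 (1.58 to 1.61) at D7. The ratio was near that of Sham at D2 although its parts had changed: Timp2 made up 73.3% of TIMP UMIs in Sham, while Timp1 made up 78.5% at D2. At D7 the MMP sum was 2605 CPM against 916 CPM in Sham, with Mmp2 holding 47.5% of it, and the TIMP sum was 2307 against 2758 CPM. In endothelial-like cells the ratio was 0.663 (0.624 to 0.705), 3.10 (2.81 to 3.42) and 1.99 (1.87 to 2.12), as the TIMP sum went from 1403 CPM to 383 and 545 CPM. Protease UMIs thus outnumbered TIMP UMIs in endothelial-like cells after injury and were outnumbered in Sham.

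In smooth muscle-like cells the ratio was 1.08 (1.00 to 1.17) in Sham and 0.900 (0.869 to 0.933) at D7, and it changed sides under another averaging, so no direction is read from it. Lymphatic endothelial-like cells had the lowest ratios, 0.113 in Sham and 0.338 at D7, and Timp3 was their leading TIMP gene. In monocyte/macrophage-like cells the ratio was 0.528 (0.501 to 0.556), 1.21 (1.18 to 1.24) and 1.68 (1.62 to 1.73), and the leading MMP gene was Mmp9 in Sham, Mmp14 at D2 and Mmp12 at D7. Neutrophil-like cells had 9.72, 34.1 and 9.40 protease UMIs per TIMP UMI, and Mmp9 held 66.8%, 95.5% and 85.7% of their MMP UMIs. Over whole libraries the ratio was 0.834, 2.89 and 1.62, and the libraries also differed in their cell make-up. Classes differed in cluster make-up too. Cluster 13 held 73.0% of monocyte/macrophage-like UMIs in Sham and 4.97% at D7, and cluster 0 held 0.66% and 93.1% of fibroblast-like UMIs. The part of cluster make-up in the class ratios was not tested. The protease and TIMP sums weigh genes by UMIs and do not reflect which inhibitor binds which enzyme.

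**Figure D5:**
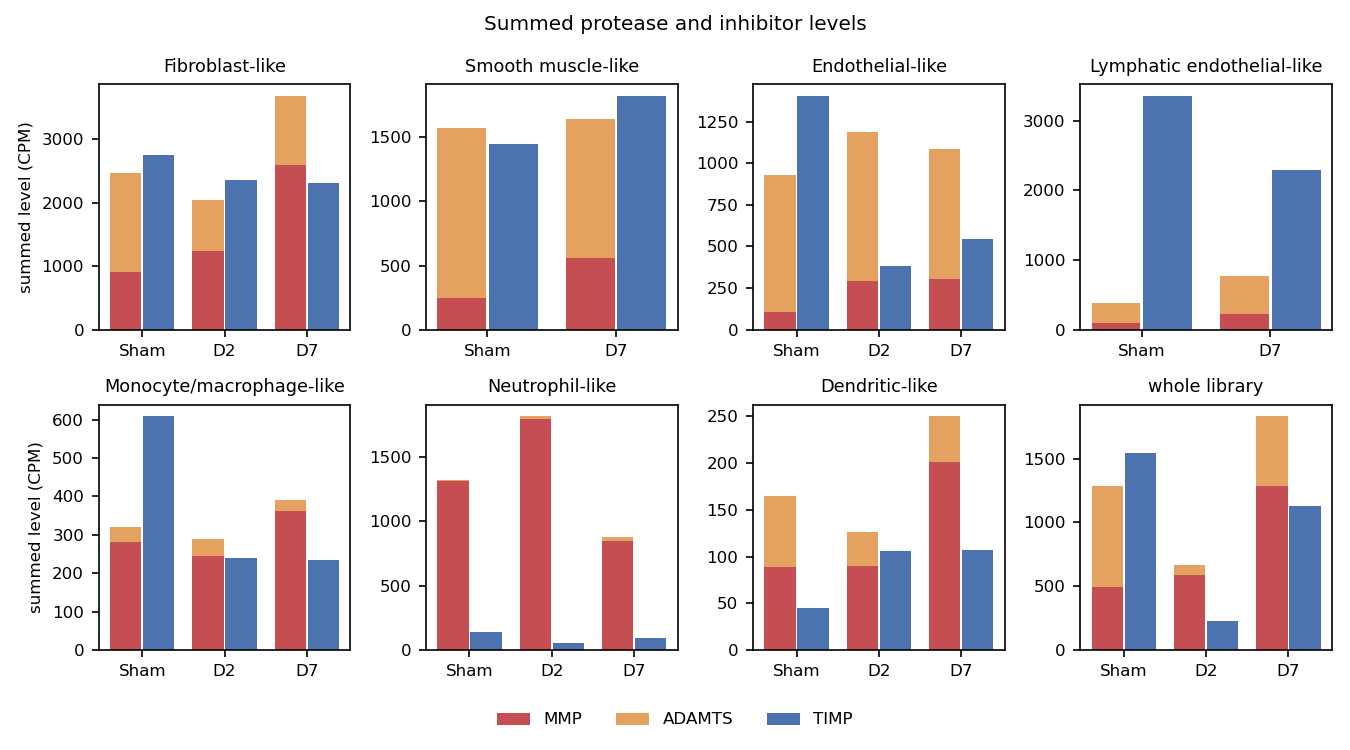
Summed level in CPM of the MMP and ADAMTS genes (stacked bars) beside that of the TIMP genes, by library, in 7 cell classes and in whole libraries; each panel has its own axis. The TIMP bar is the taller one in Sham endothelial-like and monocyte/macrophage-like cells and the shorter one at D2 and D7.

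Other genes of the pathway were followed in lists. Among 25 activators and binding regulators, 18 reached the floor in fibroblast-like cells at D7 against Sham, with 5 higher and 4 lower and a median log2 ratio of 0.46, where 7.6% and 10.4% of all genes were called. At D2 against Sham, 5 of 17 were higher and 5 lower, where 13.9% and 15.1% of all genes were called. Their median log2 ratio was -0.29, beside 0.07 over all genes tested. Reck, encoding a membrane-bound MMP inhibitor, was among the lower ones, 6.71-fold lower at D2, at 11.8 against 79.0 CPM. Among matrix substrates, 5 of 21 were higher and 10 lower at D2 against Sham, with a median of -0.47, beside the same shares and median of all genes. At D7 against Sham, 12 of 23 were higher and 5 lower, with a median of 1.25. Tnc, encoding tenascin-C, was at 96.1 against 0.933 CPM and Postn, encoding periostin, at 2551 against 269 CPM. Among the ADAM family, 1 of 6 was higher, Adam12, at 229 against 15.6 CPM, and 1 lower. In monocyte/macrophage-like cells at D7, 4 of 8 other matrix-degrading proteases were higher and 0 lower (median 0.96), where 6.87% and 9.36% of all genes were called. Among them were the cathepsin genes Ctsd, at 1051 against 255 CPM, and Ctsl, at 584 against 201 CPM. The shift of this list at D7 against Sham was not particular to that class. Its median was 1.74 in neutrophil-like, 1.06 in T/NK/ILC-like, 0.95 in dendritic-like and 0.55 in B-like cells. The medians of all genes tested there were 0.20, 0.02, 0.13 and -0.01. At D7 against Sham the medians of all genes tested were -0.05 in fibroblast-like and -0.13 in monocyte/macrophage-like cells.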

How the data were processed

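Single-cell suspensions from 3 pooled libraries (Sham, D2 and D7, 6 mice each, per the labels) were the source of the data. The authors deposited UMI counts per gene and barcode as matrices; Cell Ranger 7.1.0 is named per the file headers, and Cell Ranger 7.2.0, Seurat 5.0.1 and mm10 per the submitters' processing notes. These counts are raw whole numbers. Ensembl identifiers and symbols come from the files.

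A barcode needed 300 genes, 500 UMIs and a mitochondrial share of 15% or less. Doublets called by Scrublet within scanpy 1.11.5 were removed (105 in Sham, 472 at D2, 228 at D7). In Sham the automatic threshold called 0 doublets, so the mean threshold of the other libraries, 0.298, was used, chosen after seeing the data. The cells kept held 38125244, 91181731 and 96992570 UMIs. Clusters were made by the Leiden method (leidenalg 0.10.2, resolution 1, 2000 variable genes, 30 principal components, 15 neighbours) with the genes described here left out, and were named "-like" from marker genes. Clusters 16, 24 and 26 stayed without a class.

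The CPM of each class in a library was computed from its summed UMIs, with exact Poisson intervals, shares with Clopper-Pearson intervals and ratios with exact conditional binomial intervals (scipy 1.17.1). Where 0 UMIs were counted, 3 counts per summed class set the bound. The background counts all genes that reached 50 CPM and 20 UMIs in either library. Every gene with 20 CPM and 20 UMIs in a class was described there, with full values for those called and for the 3 highest, and a gene under 0.25 of its highest class was given with that class beside it. For other pathway genes at most 4 a list were eligible to be named. The members and lists were chosen with earlier results of these data known. Scripts were tested on simulated data. Alternatives are given in the closing section. One gene of the lists of other pathway genes is counted with its list and not reported by name here.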

Additional observations from a re-analysis of the deposited data

Results flagged for a closer look

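The D7 over Sham ratio of Adamts5 pointed in opposite directions in different cell classes. On the log2 scale it was -2.38 in fibroblast-like, -1.45 in endothelial-like and -1.38 in smooth muscle-like cells, but 1.53 in lymphatic endothelial-like cells. For Adamts6 at D2 over Sham the log2 ratio was 2.18 in fibroblast-like and -1.22 in dendritic-like cells. For Mmp9 at D2 over Sham it was -2.66 in monocyte/macrophage-like cells. In endothelial-like cells it was 6.42 with 1 CPM added to both levels, which is no bound because Sham had 0 UMIs; the level was at least 52.9-fold higher against the floor of 3 UMIs. Without the 3 cells with most Mmp9 UMIs the log2 value was 4.68 and the call was lost. With 1 library per group, these differences between classes were not tested.

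Cells in the clusters without a class, which entered no comparison, also held several of the genes above their Sham level. At D2, Mmp9 stood at 168 CPM against 12.2 CPM in Sham, Mmp14 at 174 CPM against 7.19 CPM and Timp1 at 93.5 CPM against 2.21 CPM. At D7, Mmp9 stood at 539 CPM, Mmp12 at 94.9 CPM against 4.43 CPM in Sham, and Mmp14 at 176 CPM. The clusters that make up this remainder differed between libraries.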

How the results depend on the processing

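With 1 library per group, the spread between animals is unknown, leaving out a replicate was not possible, and depth limits genes of few UMIs, such as those near the floor of 20 UMIs. No paired analysis was possible because each group is 1 library. Of 726 values for the 70 called ratios under the alternatives, 725 kept their direction; the exception was Mmp2 in endothelial-like cells at D7 over Sham, whose log2 ratio was 1.83 and became -0.51 with free RNA subtracted. Of 218 levels, 173 moved by less than 1.5-fold and 198 by less than 2-fold under the alternatives run. The alternatives that leave out cluster 3 or the 3 cells with most UMIs were chosen after seeing the data. The cause of the following moves was not tested, except that a lower floor or ratio can only add calls.

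Counts of called genes are given as the main count and then the count under the alternative. With a floor of 20 CPM, higher calls went from 3 to 5 (D2 over Sham), 2 to 6 (D7 over Sham) and 0 to 1 (D7 over D2) in endothelial-like cells, from 2 to 4 in lymphatic endothelial-like cells, 1 to 2 in monocyte/macrophage-like cells (D7 over D2), 1 to 2 in dendritic-like cells (D2 over Sham), 0 to 1 in neutrophil-like cells (D7 over Sham and D7 over D2) and 0 to 1 in B-like cells (D7 over D2). Lower calls went from 2 to 4 (D2 over Sham) and 0 to 1 (D7 over D2) in monocyte/macrophage-like cells, and from 0 to 1 in lymphatic endothelial-like and T/NK/ILC-like cells (D7 over Sham). With a ratio of 1.5, higher calls went from 0 to 2 in endothelial-like cells (D7 over D2), 2 to 5 in lymphatic endothelial-like cells and 0 to 1 in neutrophil-like cells (D2 over Sham and D7 over D2). Lower calls went from 1 to 2 in fibroblast-like cells (D7 over D2), 3 to 5 in endothelial-like cells (D2 over Sham), 1 to 3 in neutrophil-like cells (D7 over Sham) and 0 to 1 in lymphatic endothelial-like and dendritic-like cells (D7 over Sham).

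With every cell weighted alike, lower calls went from 7 to 4 (D2 over Sham) and 6 to 3 (D7 over Sham) in fibroblast-like cells, 5 to 3 in smooth muscle-like cells and 0 to 1 in T/NK/ILC-like cells (both against Sham). With a class given to each cell, higher calls went from 3 to 5 in smooth muscle-like cells, 2 to 7 in lymphatic endothelial-like cells, 0 to 2 in endothelial-like cells (D7 over D2), 2 to 1 in dendritic-like cells (D7 over D2), and 0 to 1 (D7 over Sham) and 0 to 2 (D7 over D2) in B-like cells. Lower calls went from 1 to 2 in fibroblast-like cells (D7 over D2), 5 to 3 in smooth muscle-like cells and 0 to 1 in B-like and T/NK/ILC-like cells (D2 over Sham). At clustering resolution 2, lower calls went from 2 to 4 (D2 over Sham) and 0 to 2 (D7 over Sham) in dendritic-like cells and from 0 to 1 in T/NK/ILC-like cells (both against Sham). With doublets kept, higher calls went from 1 to 2 (D2 over Sham) and 2 to 1 (D7 over D2) in dendritic-like cells, and in T/NK/ILC-like cells higher calls went from 0 to 1 (D2 over Sham) and lower calls from 0 to 1 (D7 over D2). With the genes described here used for clustering, dendritic-like cells had 2 higher calls in place of 1 (D2 over Sham) and 1 lower in place of 0 (D7 over Sham). With free RNA subtracted, endothelial-like cells had 1 higher call in place of 2 (D7 over Sham) and 2 lower in place of 1 (D7 over D2), and T/NK/ILC-like cells 1 lower in place of 0 (D7 over Sham). Without the 3 cells with most UMIs of a gene, lower calls went from 5 to 3 in smooth muscle-like and 1 to 0 in endothelial-like cells (D7 over D2), and higher calls from 2 to 1 in lymphatic endothelial-like cells and from 2 to 1 (D7 over Sham) and 2 to 0 (D7 over D2) in dendritic-like cells.

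The protease to TIMP ratio changed sides of 1 only in smooth muscle-like cells with every cell weighted alike, where it became 0.908 in Sham and 1.08 at D7. The same weighting gave 0.746 (Sham) and 1.53 (D7) in fibroblast-like cells, 2.38 (D2) and 1.56 (D7) in endothelial-like cells, 0.128 (Sham) and 0.368 (D7) in lymphatic endothelial-like cells, and 1.34 (D2) and 1.49 (D7) in monocyte/macrophage-like cells. With a class given to each cell it was 0.915, 0.957 and 1.66 in fibroblast-like cells, and at D7 0.624 in smooth muscle-like, 0.485 in lymphatic endothelial-like and 1.59 in monocyte/macrophage-like cells. With free RNA subtracted it was 13.6, 39.6 and 12.4 in neutrophil-like cells, 1.17 (D2) and 1.88 (D7) in monocyte/macrophage-like cells, 2.18 in endothelial-like and 0.858 in smooth muscle-like cells at D7. In Sham fibroblast-like cells it was 0.918 with deeper cells only, 0.945 with doublets kept, 0.940 at resolution 2, 0.947 with the genes used for clustering and 0.951 without cluster 3. In D7 monocyte/macrophage-like cells it was 1.61 with doublets kept, 1.55 at resolution 2 and 1.53 with the genes used for clustering.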

Other observations

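Mmp9 in the clusters without a class at D7 came almost wholly from a few cells of cluster 16, a cluster led by proliferation genes and Acp5. Of its 235 cells at D7, 17 cells with 10 or more Mmp9 UMIs held 2382 UMIs (4522 CPM), while the other 218 held 26 (7.27 CPM). Genes read beside it, chosen after their values were seen, differed between the same cells. Ctsk, encoding the collagen-degrading cathepsin K, was at 13653 CPM against 376 CPM, Acp5, encoding tartrate-resistant acid phosphatase, at 7580 against 306 CPM, and Atp6v0d2, encoding a proton pump subunit, at 1346 against 51.2 CPM. Mmp14 was at 619 against 121 CPM. The proliferation gene Mki67 was at 1.90 against 352 CPM, and Lyz2, encoding lysozyme, at 58.8 against 5597 CPM. The neutrophil gene S100a8 was at 359 against 685 CPM. These cells were picked by their Mmp9 count, so the Mmp9 values describe the choice, and no cell type is named.

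Further small groups of cells stood out in single genes. Adamts6 was at 565 CPM in the 62 D7 cells of cluster 24 against 53.1 CPM in its 86 Sham cells, and at 227 CPM in the 50 D7 cells of the dendritic-like cluster 28. Mmp19 was at 203 CPM in the 93 Sham cells of cluster 26.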
